A study of Mus musculus with 98 samples.

Results

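The splicing events described here had higher inclusion in gastrocnemius muscle of wild-type FVB/NJ mice than of HSALR mice, which express a CUG repeat RNA. They were chosen by their measured PSI (percent spliced in, given as a fraction from 0 to 1: the share of a gene's transcripts over that stretch that carry the exon or intron). An event was selected on values at 7 days in gastrocnemius: its mean PSI in the 4 FVB/NJ wild-type PBS libraries had to exceed the mean of the 8 HSALR PBS libraries by at least 0.1, and the lowest FVB/NJ value had to exceed the highest HSALR PBS value. The rule selected 284 of the 76968 events that had a value in all 24 libraries of that experiment, out of 117460 events in the whole table. The 284 events lie in 147 genes and cover 218 distinct intervals.

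HSALR mice are homozygous for a human skeletal actin transgene that carries an expanded CUG repeat and is expressed in skeletal muscle, a model of myotonic dystrophy type 1. The study used HSALR mice given EEV4-PMO at 30 or 15 mg/kg, HSALR mice given unconjugated PMO at 30 mg/kg, HSALR mice given PBS, and FVB/NJ mice given PBS. PMO is a morpholino oligomer of CAG repeats, (CAG)7, which pairs with CUG repeats, and EEV4-PMO is the name the labels give its conjugate. The experiments compared conjugated with unconjugated PMO at 7 days in gastrocnemius (4 libraries for each treatment, 8 for HSALR PBS and 4 for FVB/NJ), followed 1 dose of 15 mg/kg EEV4-PMO in HSALR gastrocnemius at 1, 2 and 4 days and in HSALR quadriceps at 1, 2, 4 and 7 days (4 libraries per group, with HSALR PBS and FVB/NJ PBS at 4 days), measured nascent RNA (labelled with ethynyl uridine, EU) beside the total RNA of HSALR quadriceps 1 and 2 days after 15 mg/kg EEV4-PMO (3 libraries each) and after PBS (4 each, labelled 4 days), and measured quadriceps 3 months after 15 mg/kg EEV4-PMO (6 libraries) or PBS (4), all in HSALR mice. The labels give no ages and do not say that replicates are separate animals, so the p-values measure the spread between libraries.

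MBNL proteins are splicing regulators that bind YGCY motifs (Y is a pyrimidine) in pre-messenger RNA. They are known to raise inclusion of an exon when bound in the intron downstream of it, and to favour skipping when bound in the exon or upstream of it. Expanded CUG repeat RNA holds MBNL proteins in nuclear foci, so that muscle splices many transcripts as newborn muscle does. The events below were chosen by PSI alone, and whether MBNL proteins act on each of them was not tested.

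Of the 284 events, 173 were skipped exons in 108 genes, 95 were pairs of mutually exclusive exons, 9 were retained introns and 7 were alternative splice sites. For a mutually exclusive pair, PSI is the share of the named exon against the other exon of the pair. It is not a share of all transcripts over that stretch. Neb, the gene of the thin filament protein nebulin, held 32 events, Ttn, the gene of the giant elastic protein titin, held 30, and Tnnt3, the gene of fast skeletal troponin T, held 13. These events overlap one another and are not independent. Exons of Neb and Ttn also encode repeated protein segments, and how reads were shared among similar exons was not tested. By the roles of their genes, 87 events belonged to the sarcomere and Z-disc, 22 to the cytoskeleton, membrane and adhesion, 22 to metabolism and kinases, 18 to calcium handling and excitation and 8 to RNA binding and transcription factors, while 127 lay in genes outside these lists. The list named metabolism and kinases is mixed: of its 22 events 7 lie in Mapt, the gene of the microtubule protein tau, and 4 in Mlip, a muscle-enriched lamin-interacting protein gene, and it also holds Slain2, Trim55 and Arfgap2.

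Included exons on which the later results turn are shown first, so that their size and their motifs can be read beside their PSI. The letters are from GENCODE vM21 transcripts on GRCm38, in the direction of transcription, with each TGCT or TGCC or CGCT or CGCC in capitals. The 12-nt exon of Tnnt3, exon 6 of 15, lies at chr7:142505288-142505299 on the plus strand and has no such motif. Its mutually exclusive partner, the 39-nt exon at chr7:142507750-142507788, has 2. The Tnnt3 exons of 15 nt lie at chr7:142504250-142504264 and chr7:142505516-142505530.
Tnnt3 12 nt: cccccgaaccag
Tnnt3 39 nt partner: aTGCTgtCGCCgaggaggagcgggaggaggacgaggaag
Tnnt3 15 nt, first: aagtccaggaggaag
Tnnt3 15 nt, second: aggaagtccaagaag

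Short exons of membrane calcium proteins and of trafficking proteins come next because the results on dose, time and nascent RNA name them. Slc8a3 encodes sodium-calcium exchanger 3, which moves calcium out of the cell, and its exon 4 of 8 lies at chr12:81209454-81209471 on the minus strand. Ryr1 encodes the calcium release channel of the sarcoplasmic reticulum, and its 15-nt exon lies at chr7:29056234-29056248 on the minus strand. The exon of Cacna1s, which encodes the voltage sensor of the transverse tubule, is exon 29 of 44 at chr1:136104570-136104626 on the plus strand. Rilpl1 encodes a RILP-like trafficking protein, with exon 4 of 5 at chr5:124495899-124495922 on the minus strand, and Reep1 encodes a protein that shapes the endoplasmic reticulum, with its exon at chr6:71799166-71799201 on the plus strand. The exon of Lrrfip2, exon 8 of 24, lies at chr9:111179177-111179221 on the plus strand.
Slc8a3 18 nt: CGCTcctgttatctccag
Ryr1 15 nt: gcaggagacgtacag
Cacna1s 57 nt: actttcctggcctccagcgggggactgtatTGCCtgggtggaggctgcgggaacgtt
Rilpl1 24 nt: taaagaaggtcctttgagtgacgg
Reep1 36 nt: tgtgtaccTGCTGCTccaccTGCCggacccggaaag
Lrrfip2 45 nt: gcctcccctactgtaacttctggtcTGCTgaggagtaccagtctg

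Longer exons of a kinase subunit, a sarcomere protein, a metabolic enzyme and a transcription factor complete the set. Camk2b encodes a subunit of calcium/calmodulin-dependent kinase II, with exon 13 of 24 at chr11:5987057-5987131 on the minus strand. The Neb exon, exon 149 of 157, lies at chr2:52151364-52151456 on the minus strand. Phka1 encodes the muscle regulatory subunit of phosphorylase kinase, with exon 19 of 33 at chrX:102557096-102557272 on the minus strand, and Tead1 encodes a TEA-domain transcription factor, with exon 4 of 14 at chr7:112841888-112841950 on the plus strand.
Camk2b 75 nt: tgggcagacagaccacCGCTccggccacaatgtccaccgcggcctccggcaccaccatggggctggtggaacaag
Neb 93 nt: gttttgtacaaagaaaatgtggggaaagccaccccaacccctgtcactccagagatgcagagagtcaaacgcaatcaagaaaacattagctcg
Phka1 177 nt: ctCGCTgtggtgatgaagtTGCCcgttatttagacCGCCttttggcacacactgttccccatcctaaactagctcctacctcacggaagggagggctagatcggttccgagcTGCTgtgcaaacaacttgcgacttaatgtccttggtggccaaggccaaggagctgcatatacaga
Tead1 63 nt: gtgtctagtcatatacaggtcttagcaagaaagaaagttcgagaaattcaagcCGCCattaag

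The exons differ in how many motifs they hold. Phka1 has 4, Reep1 has 3, Slc8a3, Cacna1s, Lrrfip2, Camk2b and Tead1 have 1 each, and the exons of Ryr1, Rilpl1 and Neb and both 15-nt exons of Tnnt3 have none. The motif was searched on the transcribed strand, and overlapping starts were counted. Among skipped exons of the same length, the motif was present in 20% of 15 exons of 12 nt, 11.8% of 17 of 15 nt, 16.7% of 42 of 18 nt, 18.1% of 72 of 24 nt and 35.5% of 107 of 36 nt. It was present in 28.6% of 119 exons of 39 nt, 32.2% of 177 of 45 nt, 43.8% of 201 of 57 nt, 50.4% of 258 of 63 nt, 57.9% of 330 of 75 nt, 72.3% of 364 of 93 nt and 91.4% of 151 of 177 nt. An exon without the motif says only that these letters are not in this window. Flanking introns were not analysed here.

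The included exons of the skipped-exon events had features that the rule did not use. The 154 distinct exons had a median length of 84 nt, against 118 nt for all 41047 distinct skipped exons of the rule's table, and 83.1% of them, against 40.5% of all, had a length divisible by 3, which keeps the reading frame. Among 127 skipped exons selected by the mirrored rule, those more included in HSALR PBS, the median length was 96 nt and 71.7% had such a length. The YGCY motif was present in 62.3% of the 146 member exons with a sequence, with 1.33 motifs per 100 nt. Among the exons of the mirrored rule the motif was present in 80.3%, with 2.32 per 100 nt, and among all skipped exons in 75.4%, with 1.5 per 100 nt. Longer exons hold the motif more often, so exons of like length were also set side by side. At 31 to 60 nt the motif was present in 42.9% of 35 member exons, 54.2% of 24 exons of the mirrored rule and 40.8% of 3464 of all. At 61 to 120 nt it was present in 63.4% of 71 member exons, 87.3% of 55 exons of the mirrored rule and 68.1% of 17359 of all. Above 120 and up to 300 nt it was present in 92.6% of 27 member exons, all 32 exons of the mirrored rule and 88.4% of 17792 of all. Up to 30 nt it was present in 12.5% of 8 member exons, 22.2% of 9 exons of the mirrored rule and 21.8% of 519 of all. Member exons were thus below all skipped exons up to 30 nt, where they were few, and at 61 to 120 nt. They were not below in the other ranges given. These are descriptions of selected exons and were not tested. Of the 284 included intervals, 225 were coding, 12 partly coding, 8 untranslated and 10 in noncoding transcripts.

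Libraries that stood apart are given before the results that rest on them. Each library was placed on a scale called return, on which HSALR PBS averages 0 and FVB/NJ PBS of the same muscle averages 100%, taking the median over the events that differ by at least 0.1 there. Among vehicle libraries, HSALR quadriceps PBS replicate 2 stood at 28.5% and HSALR gastrocnemius PBS at 4 days replicate 3 at 19.0%, and at 1 day of EEV4-PMO replicate 3 was the lowest in both muscles, at -21.2% in gastrocnemius and -9.9% in quadriceps. Gastrocnemius EEV4-PMO at 4 days replicate 2 had high levels of markers of other cell types: its summed level of 7 lymphocyte markers was 367.6 TPM (a library-scaled transcript level), of 2 brown fat markers 730.5 TPM and of 4 white fat markers 796.6 TPM, against group medians of 1.74, 2.45 and 57.3 TPM. Brown fat markers also reached 1118 TPM in an FVB/NJ quadriceps library. All 8 muscle fibre markers were measured, and their sum ranged over the 98 libraries from 66810 TPM, in nascent RNA, to 167600 TPM. In bulk muscle RNA, fewer cells of a type and less RNA per cell cannot be told apart. The read depth behind each PSI is unknown, because PSI is given without read counts. Between 34114 and 90112 events had a value in a library. FVB/NJ quadriceps PBS replicate 3 had 58335, the fewest of the quadriceps time course. Nascent RNA replicate 3 at 2 days had 77341, the fewest among the nascent and total RNA libraries of its cohort.

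The difference that chose the events was wide for some and close to the threshold for others. Over the 284 events, mean PSI in HSALR PBS had a median of 0.3776 and ranged between 0.0024 and 0.8835, and mean PSI in FVB/NJ PBS had a median of 0.7341 and ranged between 0.1605 and 1.0. The difference, FVB/NJ minus HSALR, had a median of 0.2308, a middle range of 0.1561 to 0.3664, and extremes of 0.1011 and 0.9605. Just inside the threshold lay events of Ttn at 0.1011, Nrap at 0.1011 and Neb at 0.1032, and just outside lay Gorasp2 at 0.0986, Serpinb6a at 0.0984 and Sec11c at 0.0976. Another 1706 events reached the difference of 0.1 in favour of FVB/NJ but had overlapping groups. These values describe the selection and were not tested.

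The conjugate was compared with the unconjugated oligomer at 30 mg/kg in HSALR gastrocnemius 7 days after dosing, a contrast the rule did not use. EEV4-PMO raised inclusion in 137 of the 284 events (48.2%), in 73 genes, and lowered it in none, at an adjusted p under 0.05 by limma and a difference of at least 0.1 in mean PSI, the call used throughout. Over all 46521 events tested, 0.389% were called higher and 0.299% lower. The median difference, EEV4-PMO 30 minus PMO 30, was 0.1845 over the members and 0.0 over all events, with a middle range of 0.1112 to 0.3044 over the members. Groups did not overlap and differed by at least 0.1 in favour of EEV4-PMO in 183 members, against 1.03% of all events. The spread in this fit was pooled over all 24 libraries, including those the rule used, and a fit of the compared libraries alone called 75 members higher.

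Calcium handling and excitation held 12 called events of 18, in 7 of 9 genes. The Slc8a3 18-nt exon had PSI of 1, 0.79, 0.85 and 0.736 in EEV4-PMO 30 libraries and 0.024, 0.238, 0.018 and 0.061 in PMO 30 libraries. Its HSALR PBS values lay between 0.076 and 0.272 with a median of 0.173, and its FVB/NJ values were 0.907, 0.974, 1 and 0.861. The conjugated and unconjugated groups did not overlap, and their difference was 0.759 ± 0.066 (SE, adjusted p = 3.5e-07 by limma). Atp2a1 encodes SERCA1, the pump that returns calcium to the sarcoplasmic reticulum, and its 42-nt exon at chr7:126446545-126446586 had PSI of 0.957, 0.882, 0.927 and 0.883 in EEV4-PMO 30 libraries and 0.146, 0.147, 0.179 and 0.162 in PMO 30 libraries. The HSALR PBS libraries lay between 0.114 and 0.356 for this exon, with a median of 0.1715, and the FVB/NJ libraries between 0.996 and 0.998. All 4 conjugate libraries were nearer to FVB/NJ than to HSALR PBS, and the difference from PMO was 0.754 ± 0.037 (adjusted p = 6.6e-11). For the Camk2b 75-nt exon, EEV4-PMO 30 libraries had 0.707, 0.688, 0.541 and 0.626 and PMO 30 libraries had 0.143, 0.138, 0.11 and 0.105, a difference of 0.516 ± 0.031 (adjusted p = 2e-09).

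The other called genes of this group moved over smaller ranges. PSI of the Ryr1 exon was 0.29, 0.261, 0.256 and 0.244 in EEV4-PMO 30 libraries, against 0.046, 0.071, 0.034 and 0.054 in PMO 30 libraries and 0.425, 0.475, 0.435 and 0.414 in FVB/NJ. It rose by 0.212 ± 0.018 (adjusted p = 2.7e-07) and stayed below every wild-type library. The Cacna1s exon, at 0.991, 0.988, 0.978 and 0.983 in EEV4-PMO 30 libraries against 0.806, 0.819, 0.825 and 0.815 in PMO 30 libraries, rose by 0.169 ± 0.02 (adjusted p = 3.8e-05). The exon of Cacna2d1, an accessory calcium channel subunit, rose by 0.278 ± 0.039 (adjusted p = 0.00023). The 79-nt exon of Clcn1, the gene of the muscle chloride channel, is scored against its mutually exclusive partner of 126 nt. Its share of the pair rose by 0.16 ± 0.032 (adjusted p = 0.013). The genes with no call encode junctional proteins of the sarcoplasmic reticulum, and their events are pairs of mutually exclusive exons. The Trdn difference was 0.074 ± 0.015 (adjusted p = 0.015), under the minimum of 0.1, and the Asph difference was 0.047 ± 0.037 (adjusted p = 0.81).

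**Figure D1:**
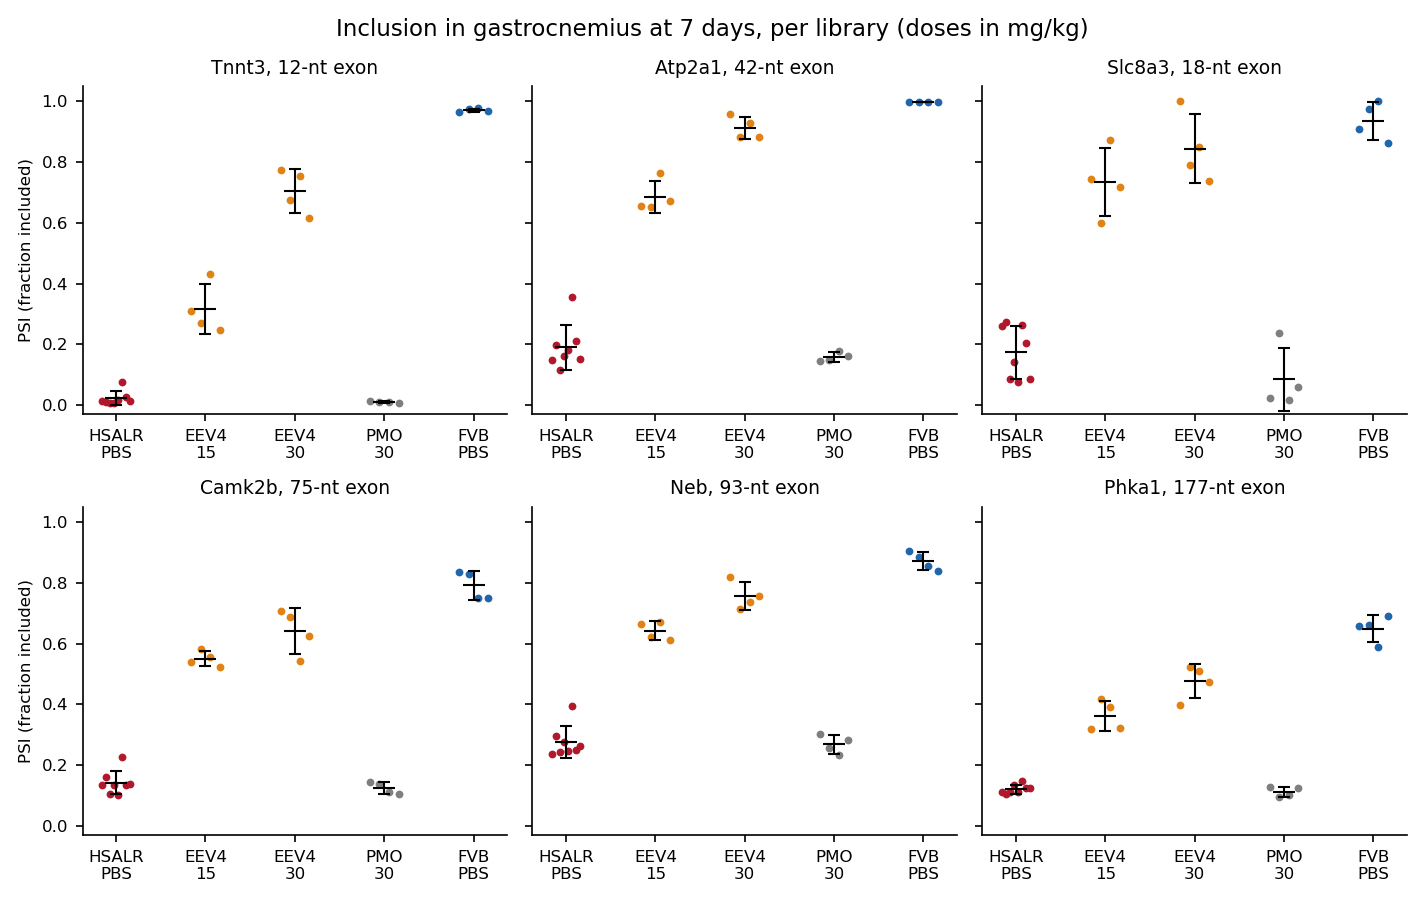
PSI of 6 included exons in gastrocnemius 7 days after dosing, 1 point per library, by treatment. In Tnnt3, Atp2a1, Slc8a3, Camk2b, Neb and Phka1 every library given 30 mg/kg EEV4-PMO lies above every library given 30 mg/kg PMO, as the Atp2a1 values of 0.882 to 0.957 against 0.146 to 0.179 show.

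In the sarcomere and Z-disc group 46 of 87 events were called, in 8 of 10 genes. Tnnt3 gave 9 of its 13. The 12-nt exon, scored against the 39-nt exon, had PSI of 0.774, 0.676, 0.754 and 0.617 in EEV4-PMO 30 libraries and 0.015, 0.011, 0.011 and 0.008 in PMO 30 libraries. Its HSALR PBS libraries ranged from 0.007 to 0.077 with a median of 0.0145, and FVB/NJ libraries had 0.966, 0.973, 0.976 and 0.967. PMO libraries thus lay within the range of PBS, and the difference between the treatments was 0.694 ± 0.032 (adjusted p = 4.6e-11). Scored as a skipped exon, the same 12-nt exon was also a member, with a selection difference of 0.6688, and was not called. Where no score is named below, the 12-nt exon is scored against the 39-nt exon. The second 15-nt exon, also scored against the 39-nt exon, rose by 0.588 ± 0.035 (adjusted p = 1.7e-09). The first 15-nt exon, scored against the second, had the widest wild-type difference of all and was not called. Its EEV4-PMO 30 libraries spread over 0.88, 0.221, 0.206 and 0.955, and the difference of 0.551 ± 0.166 had an adjusted p of 0.21. Neb gave 24 called events of 32. Its 93-nt exon had PSI of 0.819, 0.713, 0.736 and 0.755 in EEV4-PMO 30 libraries and 0.301, 0.256, 0.232 and 0.284 in PMO 30 libraries, a difference of 0.488 ± 0.03 (adjusted p = 3.3e-09).

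Among the Z-disc genes, Ldb3 encodes a PDZ-LIM protein that binds alpha-actinin, and its event is a pair of mutually exclusive exons. The share of its 146-nt exon in the pair rose by 0.275 ± 0.023 (adjusted p = 2e-07), with 0.399, 0.35, 0.377 and 0.403 in EEV4-PMO 30 libraries and 0.092, 0.111, 0.107 and 0.119 in PMO 30 libraries. Pdlim3, a related PDZ-LIM gene, rose by 0.447 ± 0.06 (adjusted p = 0.00014), and Nrap, a nebulin-related anchoring protein, by 0.197 ± 0.032 (adjusted p = 0.0015). Ttn gave 6 called events of 30, with a median difference of 0.158.

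Cytoskeletal and membrane genes had 13 called events of 22, in 8 of 9 genes. Lrrfip2 rose by 0.546 ± 0.067 (adjusted p = 4.5e-05), Clasp1, which encodes a protein that binds microtubule ends, by 0.419 ± 0.052 (adjusted p = 4.6e-05), the Tacc2 splice site of 295 nt, in a centrosome and microtubule protein gene, by 0.409 ± 0.034 (adjusted p = 2.4e-07), and Kif13a, a kinesin motor gene, by 0.384 ± 0.046 (adjusted p = 3.3e-05). The metabolism and kinase list also had 13 of 22, in 7 of 9 genes, and 6 of the 13 were Mapt events. Phka1 had 0.399, 0.524, 0.509 and 0.475 in EEV4-PMO 30 libraries, 0.129, 0.096, 0.101 and 0.124 in PMO 30 libraries and 0.658, 0.662, 0.588 and 0.689 in FVB/NJ libraries. The conjugate libraries lay between PMO and wild type without touching either, and the difference from PMO was 0.364 ± 0.025 (adjusted p = 1.3e-08). Trim55, a sarcomeric ubiquitin ligase gene, rose by 0.539 ± 0.059 (adjusted p = 1e-05), the 181-nt exon of the myosin phosphatase subunit gene Ppp1r12b by 0.4 ± 0.045 (adjusted p = 1.3e-05) and an exon of the Rap1 exchange factor gene Rapgef1 by 0.38 ± 0.024 (adjusted p = 3.7e-09). Ogdh, which encodes a subunit of 2-oxoglutarate dehydrogenase, had 0.256, 0.408, 1 and 0.775 in EEV4-PMO 30 libraries and 0 in all 4 PMO 30 libraries. Its conjugate libraries scattered widely, and the difference of 0.61 ± 0.163 was not called (adjusted p = 0.11).

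RNA binding and transcription factor genes had 5 called events of 8, in Tead1, Mbnl1 and Celf1. Tead1 gave all 3 of its events, and its 63-nt exon had 0.665, 0.596, 0.547 and 0.648 in EEV4-PMO 30 libraries, against 0.232, 0.332, 0.292 and 0.214 in PMO 30 libraries, a difference of 0.346 ± 0.036 (adjusted p = 4.6e-06). FVB/NJ libraries had 0.484, 0.551, 0.41 and 0.432 for this exon, so 3 of the 4 EEV4-PMO 30 values exceeded every wild-type value. Mbnl1 encodes the muscleblind protein that CUG repeats hold, and its own event, a pair of mutually exclusive exons, rose by 0.16 ± 0.021 (adjusted p = 8.1e-05). Outside the role lists, 48 of 127 events were called, in 40 of 105 genes. Among them, the Rilpl1 exon rose by 0.444 ± 0.057 (adjusted p = 8.1e-05) and the Reep1 exon by 0.37 ± 0.059 (adjusted p = 0.0011).

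Not all members moved with treatment. At 30 mg/kg EEV4-PMO the median return over the 284 events was 80.9%, with 148 events at 80% or more, 10 under 20% and 2 below 0. Both ends of this scale are values that the rule selected on, so returns at 7 days in gastrocnemius are a description and support nothing. With PMO 30 it was 1.1%, and 12 events were at 50% or more. In 15 events the EEV4-PMO 30 mean was below the PMO 30 mean, none of them called, with Ccz1 at a difference of -0.147 and Arid5a at -0.124. It was above the PMO 30 mean in 94.7% of the members, against 42.0% of all events. Sums of cell-type markers also moved with this contrast. The 4 slow fibre markers summed to 1841 to 3854 TPM in EEV4-PMO 30 libraries and 1148 to 1955 TPM in PMO 30 libraries, and the 3 macrophage markers to 12.34 to 19.17 TPM and 22.88 to 80.41 TPM in the same groups; their part in the result was not tested.

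Raising the conjugate dose changed few events by the test. EEV4-PMO at 30 mg/kg against 15 mg/kg called 7 of 284 members higher, against 0.015% of all events, and 18 members had groups that did not overlap, against 0.361% of all. The direction was the same in most members, with a higher mean at 30 mg/kg in 241 (84.9%), against 40.9% of all events, and a median difference of 0.0432. The 7 were 5 Tnnt3 events, the Atp2a1 exon and the Ryr1 exon. For the Tnnt3 12-nt exon the values at 30 mg/kg, given above, stood against 0.311, 0.271, 0.432 and 0.246 at 15 mg/kg, a difference of 0.39 ± 0.032 (adjusted p = 2.2e-06). Atp2a1 had 0.654, 0.651, 0.763 and 0.671 at 15 mg/kg and was 0.228 ± 0.037 higher at 30 mg/kg (adjusted p = 0.018), and Ryr1, with 0.116, 0.222, 0.164 and 0.12 at 15 mg/kg, was 0.107 ± 0.018 higher (adjusted p = 0.025). Slc8a3 and Camk2b were not called, at 0.111 and 0.09 higher (adjusted p = 0.84 for both), which does not show that the doses act alike on them. With only the 2 dose groups in the fit none of the 284 was called, while 67 had an unadjusted p under 0.05 in the fit of all 24 libraries. Median return over the 284 events was 80.9% with 30 mg/kg, against 61.8% with 15 mg/kg, on the scale whose ends the rule selected on. By role it was 88.7% against 51.8% for calcium handling, and 80.2% against 62.0% for the sarcomere.

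The genotype difference was then tested in HSALR and FVB/NJ PBS libraries at 4 days, which the rule did not use. In gastrocnemius 247 of the events could be tested, and 65 of them, in 36 genes, were lower in HSALR and none higher, against 0.195% of all events called lower. HSALR means were below FVB/NJ means in 227 and above them in 20 (8.1%), against 36.9% of all events above. All HSALR libraries lay below all FVB/NJ libraries by a mean of at least 0.1 in 134, against 0.92% of all events. In quadriceps, a muscle the rule did not see, 77 of 242 events, in 47 genes, were lower in HSALR and none higher, against 0.258% of all events, and 118 did not overlap, against 0.766% of all. The median differences, HSALR minus FVB/NJ, were -0.166 in gastrocnemius and -0.1591 in quadriceps. Of the 242 events tested in both muscles, 50, in 28 genes, were lower in both, out of the 65 and the 77. Of these 50, 44 were also among the 137 events that EEV4-PMO raised over PMO at 7 days. The other 6, among them the Tnnt3 12-nt exon scored as a skipped exon, were called neither there nor in quadriceps at 7 days. These overlaps were counted among members only, so no share over all events stands beside them. When each fit held the PBS libraries of both genotypes and no others, the counts called lower were 30 in gastrocnemius and 26 in quadriceps. In gastrocnemius, marker sums also separated the genotypes at 4 days: the 3 macrophage markers summed to 26.88 to 47.4 TPM in HSALR and 7.676 to 20.6 TPM in FVB/NJ, and the 8 muscle fibre markers to 103200 to 127300 TPM in HSALR and 133200 to 151100 TPM in FVB/NJ. In quadriceps the ranges of both sums overlapped between the genotypes. The part of these levels in the result was not tested.

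The Tnnt3 12-nt exon had PSI of 0.063, 0.055, 0.061 and 0.049 in HSALR gastrocnemius and 0.964, 0.982, 0.969 and 0.964 in FVB/NJ gastrocnemius, a difference of -0.913 ± 0.01 (adjusted p = 1.1e-18). In quadriceps it was -0.918 ± 0.034 (adjusted p = 1.7e-12). Phka1 differed by -0.494 ± 0.028 in gastrocnemius (adjusted p = 1.8e-08) and by -0.55 ± 0.016 in quadriceps (adjusted p = 6.1e-14), and Camk2b by -0.614 ± 0.045 (adjusted p = 3.4e-07) and -0.61 ± 0.035 (adjusted p = 1.5e-09). Both exons were lower in HSALR in each muscle; the difference between the muscles was not tested.

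The median titin event differed little between the genotypes at 4 days. Of the 25 Ttn events tested at 4 days, 4 were lower in HSALR gastrocnemius and 4 in HSALR quadriceps, but the median difference was -0.038 in gastrocnemius and 0.032 in quadriceps. Neb, with 32 events tested in each muscle, had medians of -0.179 and -0.207, with 12 and 11 called lower. Tnnt3 had 9 tested, 7 called lower in each muscle and medians of -0.573 and -0.504. The exon of Mybpc1, which encodes slow myosin-binding protein C, was the other way round in quadriceps, at 0.213 ± 0.07 higher in HSALR, with an adjusted p of 0.32.

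After a dose of 15 mg/kg EEV4-PMO, HSALR gastrocnemius was followed to 4 days in this cohort. No member was called against HSALR PBS at 1 or 2 days by limma, where 0.0% of all events were called higher at either time, and 24 and 34 of the 247 tested had an unadjusted p under 0.05. At 4 days 1 member was called higher, against 0.00205% of all events, with 73 at an unadjusted p under 0.05, and 41 members had groups that did not overlap, against 0.476% of all. That member was the Tnnt3 12-nt exon, with 0.186, 0.152, 0.164 and 0.152 at 4 days against the PBS values given above, a difference of 0.106 that passed the minimum narrowly (adjusted p = 0.00043). Without treated replicate 1 none was called, and without PBS replicate 3, the library with a return of 19.0%, 4 were. Without treated replicate 2, which held fat and lymphocyte markers, the count was again 1. Median return over the 177 events that differed between the genotypes in this cohort was 4.3%, 11.6% and 34.4% at 1, 2 and 4 days. The sign at 1 day depended on the measure. Mean PSI was higher than in PBS in 112 of the 247 events (45.3%), against 41.9% of all events, and lower in 135. The mean over libraries of the return per library was -0.1% over the 177 events and -1.1% over the 247.

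Quadriceps was followed to 7 days. At 1 day no member was called by limma, against 0.0% of all events, and 32 of 242 had an unadjusted p under 0.05. At 2 days 1 was called, against 0.00215% of all, and 39 did not overlap with PBS, against 0.43% of all. At 4 days 30 members in 18 genes were called higher, against 0.0796% of all events, and at 7 days 46 members in 25 genes, against 0.148%. Groups did not overlap for 79 members at 4 days, against 0.536% of all, and for 97 at 7 days, against 0.727%. No member was called lower at any time. The times share the same 4 PBS libraries. The 4-day count depended on single libraries: it was 12 without treated replicate 4, 15 without treated replicate 2, 18 without treated replicate 3, 16 without PBS replicate 3 and 16 without PBS replicate 4, and the 2-day count was 13 without PBS replicate 2 and 4 without either PBS replicate 1 or treated replicate 2. The 3 macrophage markers summed to 7.792 to 15.93 TPM at 7 days and 18.39 to 37.77 TPM in PBS, and their part in the result was not tested. Fitted with PBS and 1 time point each, 0, 10 and 16 members were called at 2, 4 and 7 days.

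The first event to pass in quadriceps was the Reep1 36-nt exon. It had PSI of 0.713, 0.833, 0.703 and 0.651 in PBS, 0.858, 0.782, 0.776 and 0.794 at 1 day, 0.986, 0.89, 0.948 and 0.906 at 2 days, 0.894, 0.949, 0.949 and 0.98 at 4 days and 0.941, 0.958, 0.988 and 1 at 7 days. It rose by 0.208 ± 0.034 at 2 days (adjusted p = 0.046), 0.218 ± 0.034 at 4 days (adjusted p = 0.0047) and 0.247 ± 0.034 at 7 days (adjusted p = 0.00065), with the FVB/NJ libraries at 0.983, 0.945, 1 and 0.959. From 2 days on, its libraries thus lay near or within the wild-type range.

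Tnnt3 moved later and by a wider span. In quadriceps the 12-nt exon had 0.053, 0.08, 0.037 and 0.04 in PBS, 0.067, 0.084, 0.047 and 0.092 at 1 day, 0.178, 0.116, 0.14 and 0.226 at 2 days, 0.335, 0.522, 0.479 and 0.487 at 4 days and 0.694, 0.778, 0.787 and 0.851 at 7 days, with FVB/NJ at 0.982, 0.982, 0.934 and 0.984. It was not called at 2 days (0.112 higher, adjusted p = 0.59) and rose by 0.403 ± 0.034 at 4 days (adjusted p = 2.5e-06) and 0.725 ± 0.034 at 7 days (adjusted p = 1.4e-10). The mean at 7 days remained 0.193 below FVB/NJ (adjusted p = 0.017). Phka1 had 0.142, 0.117, 0.113 and 0.114 in PBS, 0.182, 0.187, 0.154 and 0.199 at 1 day, 0.225, 0.179, 0.226 and 0.225 at 2 days, 0.31, 0.36, 0.317 and 0.326 at 4 days and 0.524, 0.518, 0.576 and 0.492 at 7 days. Each group from 1 day on lay above every PBS library; the rise was 0.207 ± 0.016 at 4 days (adjusted p = 1.2e-06) and 0.406 ± 0.016 at 7 days (adjusted p = 8.9e-12), and the 7-day mean was 0.144 below FVB/NJ (adjusted p = 0.00011).

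Calcium handling genes gave 4 called events of 13 at 7 days in quadriceps. Atp2a1 had 0.324, 0.552, 0.311 and 0.272 in PBS, 0.354, 0.484, 0.265 and 0.426 at 1 day, 0.501, 0.505, 0.559 and 0.654 at 2 days, 0.732, 0.895, 0.823 and 0.886 at 4 days and 0.908, 0.94, 0.926 and 0.947 at 7 days. PBS replicate 2 was the highest of the vehicle libraries and overlapped the 2-day group. The exon rose by 0.469 ± 0.055 at 4 days (adjusted p = 0.00023) and 0.566 ± 0.055 at 7 days (adjusted p = 9.8e-06). Camk2b rose by 0.438 ± 0.035 at 4 days (adjusted p = 1.2e-06) and 0.569 ± 0.035 at 7 days (adjusted p = 8.9e-09), when its libraries had 0.81, 0.772, 0.862 and 0.908 against 0.872, 0.821, 0.877 and 0.945 in FVB/NJ. Cacna2d1 rose by 0.114 ± 0.018 at 7 days (adjusted p = 0.0036). The Slc8a3 exon could not be tested in this cohort, because FVB/NJ replicate 3 has no value, but its libraries ranged from 0.266 to 0.459 in PBS and from 0.836 to 0.934 at 7 days.

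**Figure D2:**
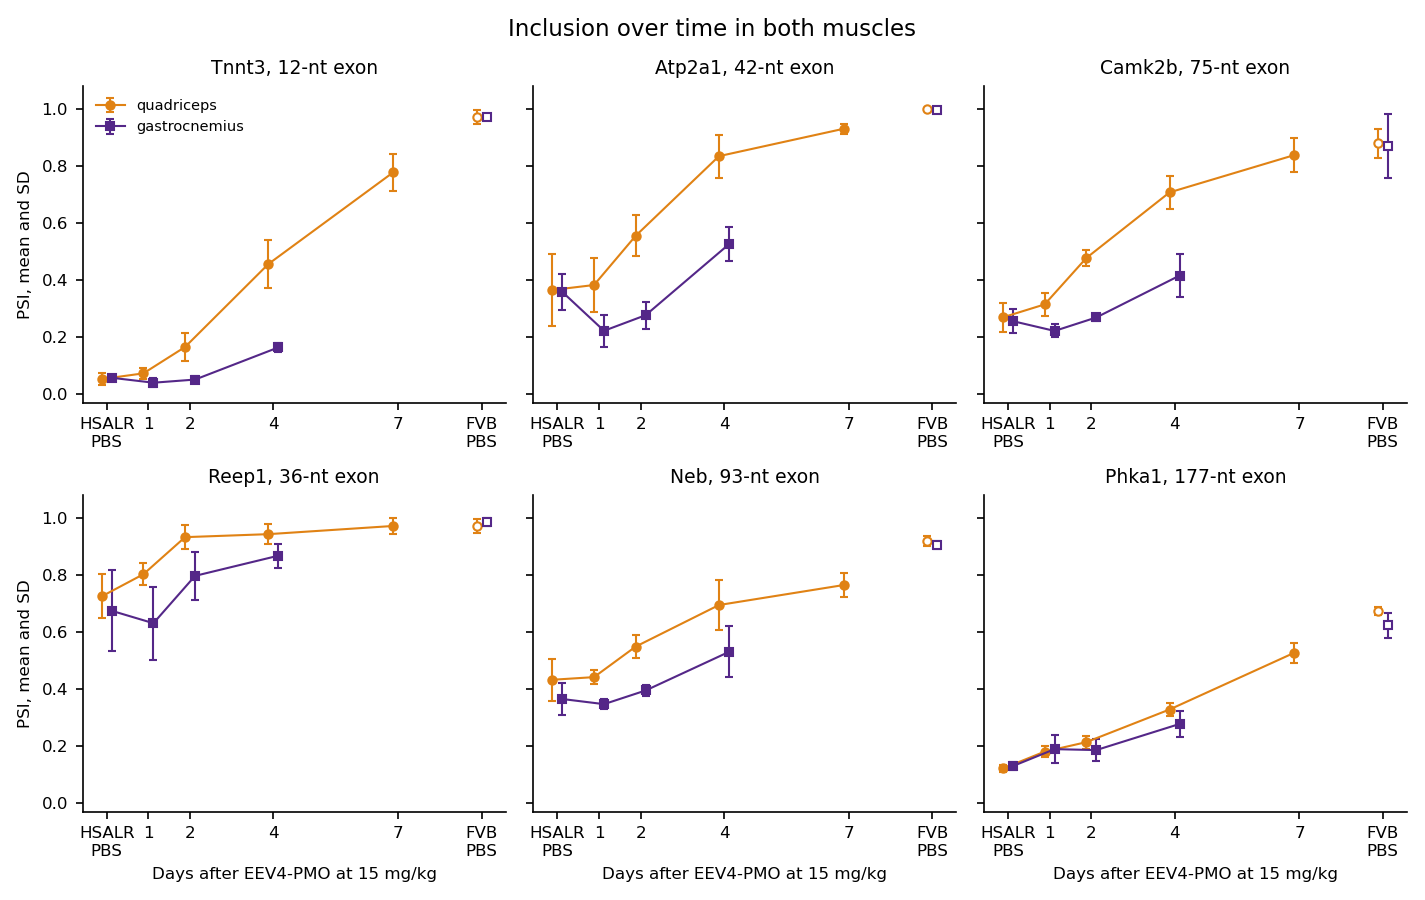
Mean PSI ± SD of 6 included exons against days after 15 mg/kg EEV4-PMO in quadriceps and gastrocnemius (n = 4 libraries per point; 0 is HSALR PBS, open symbols are FVB/NJ PBS). Reep1 is near its wild-type level in quadriceps by 2 days, while Tnnt3 and Phka1 are still below theirs at 7 days.

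The sarcomere and Z-disc gave 20 of 75 events at 7 days. These were 7 of 9 Tnnt3 events, 8 of 32 Neb events, 3 of 25 Ttn events and 1 each in Ldb3 and Nrap. The Neb 93-nt exon had 0.398, 0.528, 0.446 and 0.358 in PBS, 0.581, 0.787, 0.684 and 0.726 at 4 days and 0.715, 0.795, 0.748 and 0.801 at 7 days. Its groups at 4 and 7 days were both above every PBS library, with rises of 0.262 ± 0.039 (adjusted p = 0.0032) and 0.332 ± 0.039 (adjusted p = 0.0001). Metabolism and kinase genes gave 6 of 20, RNA binding and transcription factor genes 3 of 5, all of them Tead1, cytoskeletal genes 3 of 18 and genes outside the lists 10 of 111. Ppp1r12b rose by 0.278 ± 0.056 (adjusted p = 0.026), Rapgef1 by 0.315 ± 0.062 (adjusted p = 0.024), Tead1 by 0.299 ± 0.06 (adjusted p = 0.028) and Clasp1 by 0.25 ± 0.054 (adjusted p = 0.046).

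Median return in quadriceps was 17.8%, 48.6%, 68.4% and 76.0% at 1, 2, 4 and 7 days over 168 events. The groups of genes were not alike at the early times. The 5 events of RNA binding and transcription factor genes lie in only 2 genes, Tead1 (3) and Celf1 (2). They were at 67.0% at 1 day and 111.9% at 2 days. Cytoskeletal events (16) were at 47.2% and 78.8%, and events of the mixed metabolism and kinase list (17) at 30.8% and 70.6%. Sarcomere events (45) were at 6.1% and 23.9% and calcium handling events (9) at 4.6% and 34.1%. At 7 days the RNA binding and transcription factor events stood at 131.9%, the cytoskeletal events at 84.0%, metabolism and kinases at 86.4%, calcium handling at 82.6% and the sarcomere at 60.4%. Within the sarcomere, Ttn (4 events) reached 86.8%, Tnnt3 (8 events) 74.5% and Neb (27 events) 36.2%. The differences between groups of genes were not tested. With 1 event per gene the quadriceps medians were 22.6%, 60.9%, 75.4% and 79.2%. The PBS libraries of this cohort, at 1.2%, 28.5%, -11.1% and -14.7%, spread as widely as the 1-day libraries did, at 21.2%, 34.8%, -9.9% and 32.5%.

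**Figure D3:**
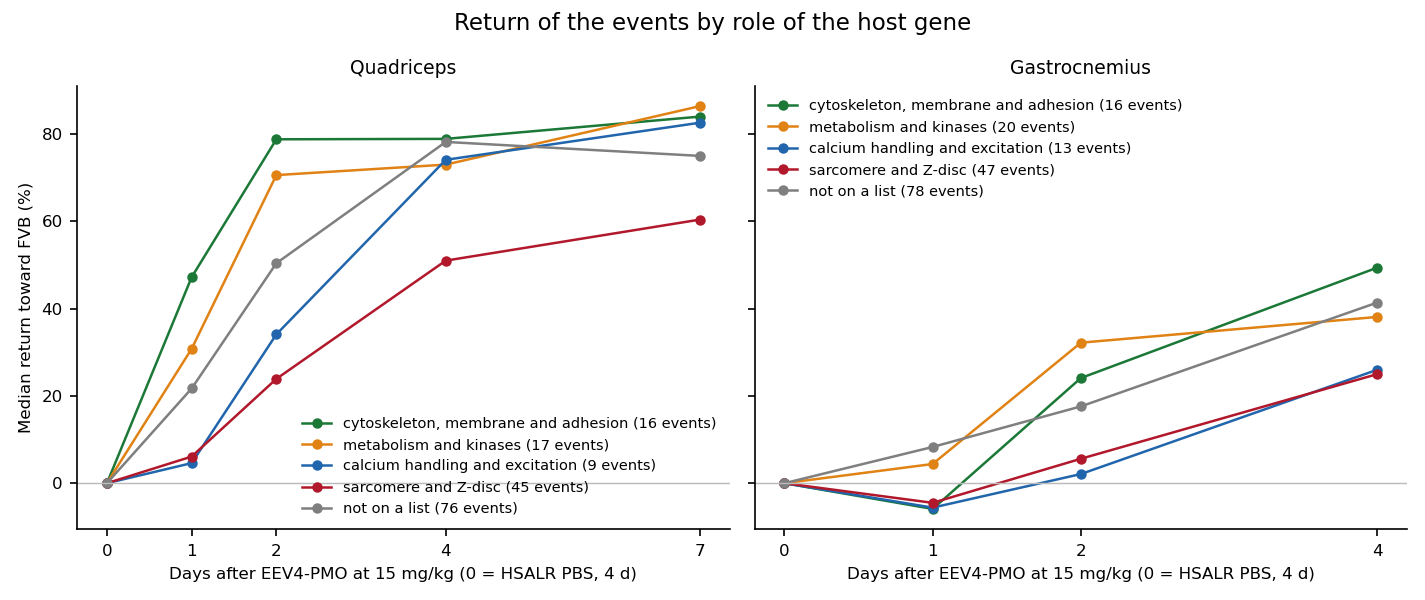
Median return (percent of the way from HSALR PBS to FVB/NJ PBS) against days after 15 mg/kg EEV4-PMO, by the role of the host gene, in quadriceps and gastrocnemius. In quadriceps at 2 days the cytoskeletal events are at 78.8% and the sarcomere events at 23.9%.

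Some events were still short of wild type at 7 days in quadriceps. In EEV4-PMO libraries at 7 days 8 members in 4 genes were lower than in FVB/NJ PBS, against 0.043% of all events, and 25 did not overlap, against 0.4% of all. Among them were 4 Neb events, 2 Tnnt3 events and the Phka1 exon. Another Neb exon of 93 nt, at chr2:52160656-52160748, is scored against its mutually exclusive partner at chr2:52150537-52150629. Its share of the pair was 0.315, 0.337, 0.444 and 0.394 at 7 days and 0.029, 0.01, 0.024 and 0.025 in PBS, a rise of 0.35 ± 0.037 (adjusted p = 2.9e-05). It was 0.25 below FVB/NJ, where the libraries had 0.648, 0.618, 0.475 and 0.751. The Tnnt3 12-nt exon scored as a skipped exon, rather than against the 39-nt exon, had 0.517, 0.652, 0.531 and 0.582 at 7 days and 0.505, 0.642, 0.479 and 0.415 in PBS, a difference of 0.06 ± 0.056 (adjusted p = 0.93). It was 0.388 below FVB/NJ at 7 days. With no other library in the fit, none of the 8 was called.

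The muscles were compared by the difference of their changes from PBS, quadriceps minus gastrocnemius. The labels do not say whether same-numbered libraries of the muscles come from the same mice, and the fit did not pair them. At 2 days no member of 242 was called by limma, against 0.0% of the 53590 events tested, and 39 had an unadjusted p under 0.05. At 4 days 1 was called higher, against 0.00373% of all, with 24 at an unadjusted p under 0.05. That was the Tnnt3 12-nt exon, whose rise at 4 days was 0.297 ± 0.037 wider in quadriceps (adjusted p = 5e-05). That call was lost on the logit scale of PSI (adjusted p = 0.39), where no member was called, and with only the compared groups in the fit (adjusted p = 0.073). The mean change was larger in quadriceps for 205 members (84.7%) at 2 days and 193 (79.8%) at 4 days, against 40.3% and 39.0% of all events. The median differences over the members were 0.0574 and 0.053. Without gastrocnemius treated replicate 2 the 4-day count was 2, without quadriceps treated replicate 1 it was 3 and without quadriceps PBS replicate 2 it was 2; without that last library 1 was called at 2 days. On the return scale the 4-day libraries had 57.7%, 80.2%, 61.9% and 76.3% in quadriceps and 37.2%, 34.8%, 32.8% and 31.5% in gastrocnemius, so they did not overlap, although each muscle was scaled by its own controls.

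**Figure D4:**
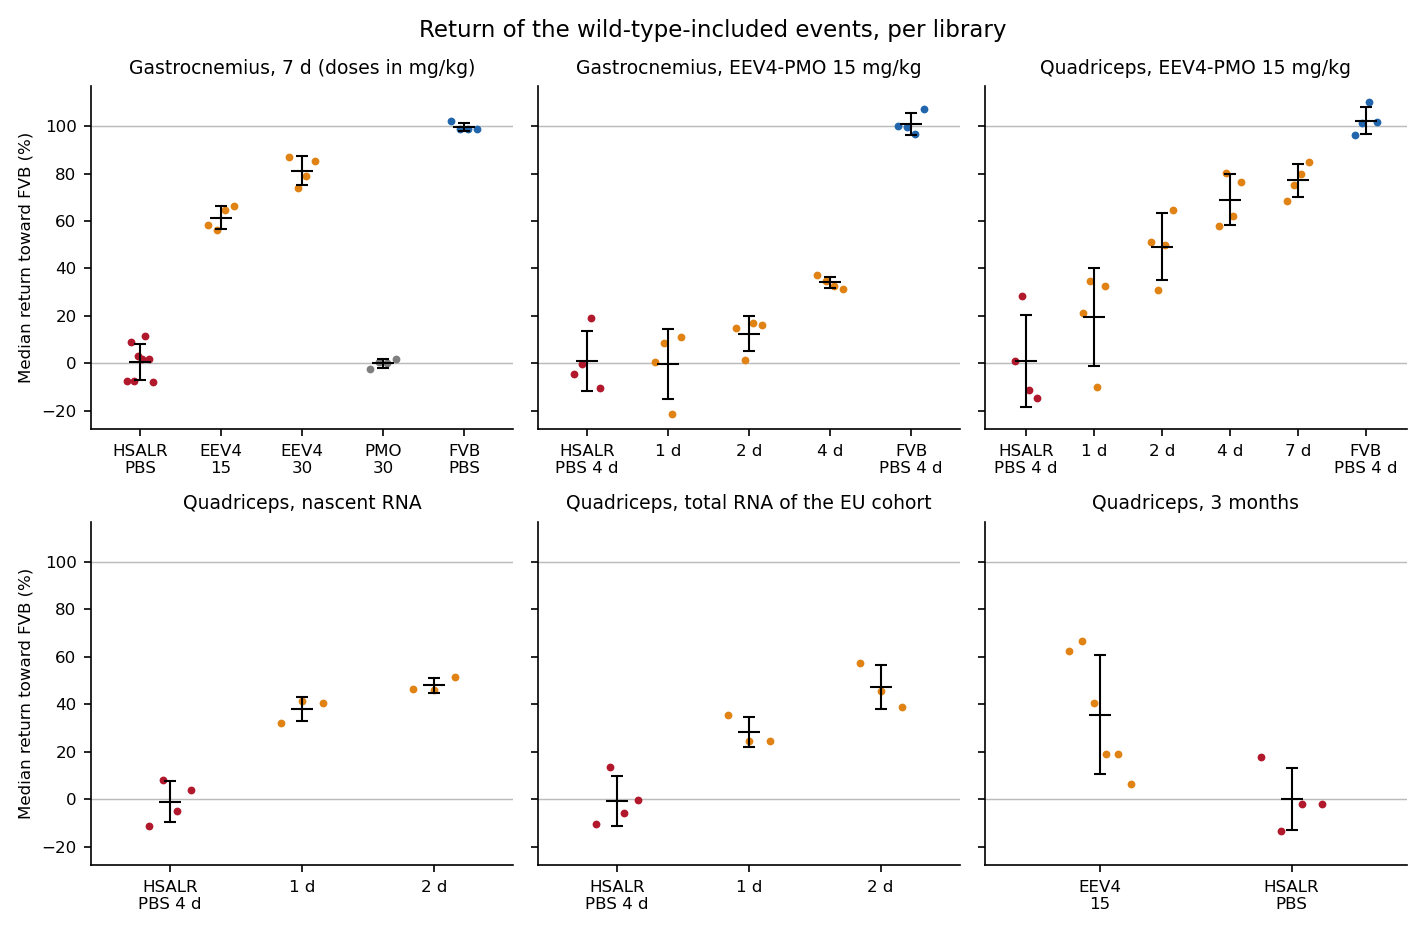
Median return of each library (points) with group mean ± SD (bars), in percent of the way from HSALR PBS to FVB/NJ PBS, for each experiment. EEV4-PMO at 30 mg/kg lies between 74.0% and 86.8% at 7 days in gastrocnemius, PMO between -2.4% and 1.7%, and the 6 treated libraries at 3 months between 6.3% and 66.8%.

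Nascent RNA showed inclusion of these exons in transcripts made shortly before sampling. In nascent RNA of HSALR quadriceps, 7 members in 6 genes were higher 1 day after EEV4-PMO than after PBS, against 0.0306% of the 71849 events tested, and 16 in 14 genes at 2 days, against 0.0571%. In the total RNA of the same cohort no member was called by limma at 1 day, against 0.0% of all, with 62 of 278 at an unadjusted p under 0.05, and 4 in 3 genes were called at 2 days, against 0.00696%. Groups did not overlap for 69 members in nascent RNA at 1 day and 82 at 2 days, against 1.02% and 0.85% of all events, and for 50 and 83 in total RNA, against 0.516% and 0.569%. In nascent RNA 59.2% of all events had a higher mean at 1 day, against 79.9% of the members. Single libraries moved these counts: without nascent PBS replicate 3 the 1-day nascent count was 4, without the 2-day nascent replicate 3 the 2-day count was 32 and without nascent PBS replicate 1 it was 9. In total RNA the 1-day count was 4 without treated replicate 2 and 1 without PBS replicate 2 or 4, and the 2-day count was 7 without treated replicate 3. Fitted with PBS and 1 time point of 1 kind of RNA each, no member was called at 2 days in total RNA or at either time in nascent RNA. On the logit scale of PSI fewer members were called in nascent RNA at both times. With the replicate block fewer were called in nascent RNA at 2 days, and more in total RNA at both times.

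Among the events called at 1 day in nascent RNA, Rilpl1 had 0.833, 0.863 and 0.819 at 1 day and 0.837, 0.846 and 0.859 at 2 days, against 0.261, 0.505, 0.389 and 0.511 after PBS. It rose by 0.422 (adjusted p = 0.0071) and 0.431 (adjusted p = 0.0067), so that its 1-day and 2-day libraries overlapped. Slc8a3 rose by 0.433 ± 0.079 at 1 day (adjusted p = 0.046) and by 0.442 at 2 days (adjusted p = 0.039), with 0.588, 0.711 and 0.77 at 1 day against 0.087, 0.316, 0.251 and 0.372 after PBS. Ppp1r12b rose by 0.308 ± 0.033 at 1 day (adjusted p = 0.00093) and 0.355 ± 0.033 at 2 days (adjusted p = 0.0011), and the Neb 93-nt exon by 0.216 at 1 day (adjusted p = 0.038). Kif13a had 0.692, 0.858 and 0.808 at 1 day and 0.683, 0.714 and 0.696 at 2 days, against 0.361, 0.514, 0.405 and 0.329 after PBS, with rises of 0.384 (adjusted p = 0.0074) and 0.295 (adjusted p = 0.046).

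At 2 days Atp2a1 and exons of Mapt, the gene of the microtubule protein tau, were also called in nascent RNA. Atp2a1 had 0.544, 0.536 and 0.555 at 1 day and 0.68, 0.7 and 0.63 at 2 days, against 0.228, 0.393, 0.256 and 0.34 after PBS. Its 2-day rise was 0.366 ± 0.047 (adjusted p = 0.0045), and at 1 day it was 0.241 ± 0.047 higher (adjusted p = 0.074). In total RNA it had 0.363, 0.293 and 0.322 at 1 day and 0.587, 0.475 and 0.398 at 2 days, against 0.193, 0.344, 0.216 and 0.274 after PBS, and was not called (0.23 higher at 2 days, adjusted p = 0.27). The Mapt exon of 759 nt rose by 0.456 ± 0.057 at 2 days in nascent RNA (adjusted p = 0.0042), with 0.767, 0.902 and 1 against 0.422, 0.448, 0.356 and 0.509 after PBS. The Tnnt3 12-nt exon had 0.101, 0.151 and 0.123 at 2 days and 0.05, 0.058, 0.037 and 0.043 after PBS in nascent RNA, and its difference of 0.078 was under the minimum of 0.1 (adjusted p = 0.0091).

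In total RNA at 2 days the called events were Ppp1r12b, 2 Tacc2 splice sites and an Epb41 exon, in the gene of a protein that ties spectrin to actin. Ppp1r12b rose by 0.351 ± 0.033 (adjusted p = 0.0013), with 0.776, 0.735 and 0.717 against 0.392, 0.448, 0.34 and 0.385 after PBS. The larger Tacc2 event rose by 0.396 (adjusted p = 0.0042), with 0.863, 0.869 and 0.788 against 0.407, 0.47, 0.401 and 0.496. Whether the response differed between nascent and total RNA was tested directly, as the difference of the 2 changes. No member was called at 1 day or at 2 days by limma, with 13 and 16 of 278 at an unadjusted p under 0.05 and 0.00278% and 0.0% of all events called in either direction, nor with the replicate block that pairs nascent and total RNA. Without nascent replicate 2 or 3 at 2 days, 1 was called. Median return was 39.9% and 46.7% in nascent RNA at 1 and 2 days and 29.0% and 45.4% in total RNA. For both kinds of RNA the wild-type end of this scale is total RNA of the FVB/NJ libraries of the quadriceps time course, which were extracted with another kit. By role, calcium handling events were at 41.3% in nascent RNA and 13.6% in total RNA at 1 day, and cytoskeletal events at 61.3% and 62.2%.

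**Figure D5:**
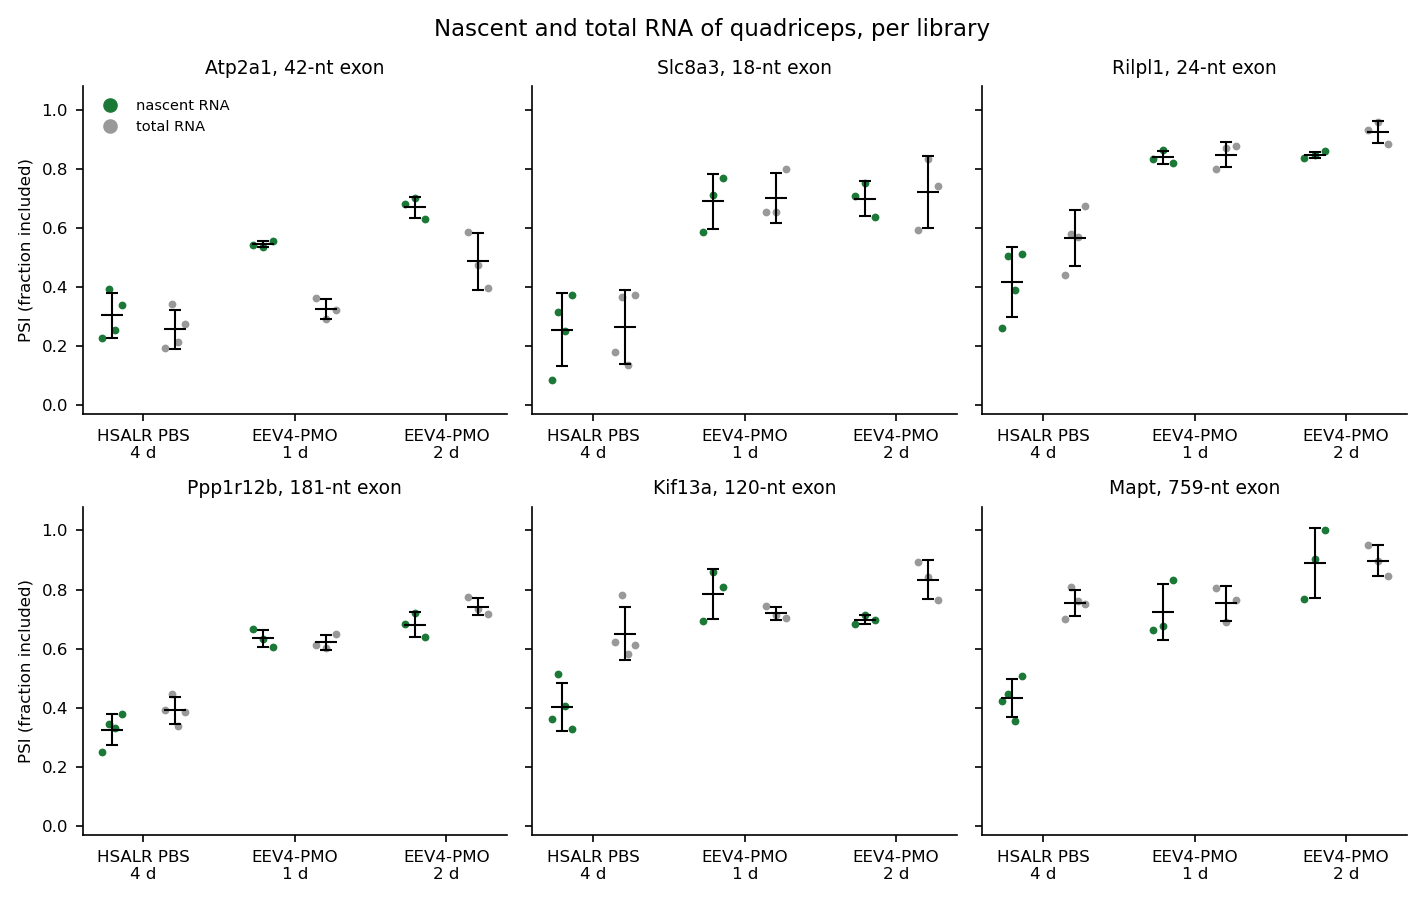
PSI per library in nascent RNA and total RNA of HSALR quadriceps after PBS and 1 and 2 days after 15 mg/kg EEV4-PMO, for 6 events. Rilpl1 in nascent RNA is at 0.819 to 0.863 at 1 day, against 0.261 to 0.511 after PBS, and Kif13a and Mapt after PBS are lower in nascent than in total RNA.

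After PBS alone, nascent and total RNA of HSALR quadriceps differed at some of the events. Of 278 tested, 7 in 6 genes were higher in nascent RNA and 12 in 10 genes lower, against 1.07% and 0.643% of all events, and with same-numbered libraries paired 10 were called, 4 higher and 6 lower. By type, 11 of the 12 lower events were skipped exons, which made up 168 of the 278 events tested. The 418-nt intron of the stress-response gene Gadd45g was retained more in nascent RNA, with 0.457, 0.453, 0.338 and 0.417 against 0.055, 0.109, 0.052 and 0.074 in total RNA, a difference of 0.344 (adjusted p = 4.9e-05; 0.0054 with pairing). Arfip1 encodes arfaptin 1, which binds Arf-family GTPases, and its 96-nt exon had 0.105, 0.256, 0.266 and 0.191 in nascent RNA and 0.588, 0.671, 0.588 and 0.643 in total RNA, a difference of -0.418 (adjusted p = 0.0023; 0.032 with pairing). Kif13a was lower in nascent RNA in both fits, with a difference of -0.248 (adjusted p = 0.014; 0.035 with pairing). The Mapt exons, at -0.341 and -0.321, lost their call with pairing (adjusted p = 0.0035 for the exon of 759 nt without it; 0.063 and 0.053 with it), and so did Mbnl1, at 0.126 (adjusted p = 0.0052; 0.052 with pairing), and Ldb3, at 0.146 (0.041; 0.062). Without total PBS replicate 2, 3 or 4 the count without pairing was 11, and without nascent PBS replicate 1 it was 12. The muscle fibre markers summed to 66810 to 90160 TPM in nascent libraries and 138200 to 167600 TPM in total libraries of this cohort, and the part of this in the result was not tested.

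At 3 months after 1 dose the treated quadriceps libraries were spread widely. No member of the 221 tested was called against PBS by limma, against 0.0% of the 30966 events tested, with 55 at an unadjusted p under 0.05. Mean PSI was higher in treated libraries for 191 (86.4%), against 49.1% of all events, with a median difference of 0.073 over the members. Groups of 8 members did not overlap, against 0.181% of all events. Atp2a1 had 0.835, 0.885, 0.61, 0.432, 0.476 and 0.309 in treated libraries and 0.433, 0.175, 0.245 and 0.236 after PBS. Its difference of 0.319 ± 0.118 had an adjusted p of 0.76, and 2 treated libraries lay below the highest PBS library. Camk2b had 0.599, 0.636, 0.432, 0.325, 0.264 and 0.254 against 0.227, 0.194, 0.177 and 0.135, and Phka1 had 0.364, 0.379, 0.26, 0.247, 0.242 and 0.228 against 0.137, 0.135, 0.13 and 0.167. In both exons every treated library lay above every PBS library, with differences of 0.235 ± 0.082 and 0.144 ± 0.033, and neither was called (adjusted p = 0.76 for both). The Neb 93-nt exon had 0.595, 0.678, 0.452, 0.311, 0.348 and 0.29 against 0.453, 0.289, 0.233 and 0.249, and its groups overlapped. The same treated libraries were high in each of these exons: the return per library, from replicate 1 to replicate 6, was 62.3%, 66.8%, 40.7%, 18.8%, 18.9% and 6.3%, against 17.6%, -13.4%, -1.9% and -2.1% after PBS. Of the 6 treated libraries 5 lay above every PBS library, on a scale that takes its wild-type end from the 4-day quadriceps cohort. Median return over the 160 events was 37.7%, and by role it was 39.0% for the sarcomere, 46.0% for calcium handling, 35.7% for the cytoskeleton and 37.0% for metabolism and kinases.

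The levels of the host genes changed in both directions. Of 145 host genes tested on log2(TPM + 1), 24 were higher and 19 lower with EEV4-PMO 30 than with PMO 30 at 7 days in gastrocnemius, against 5.92% and 5.75% of all genes, and the median log2 difference was 0.009 over the hosts. In HSALR against FVB/NJ quadriceps PBS 22 were higher and 19 lower, against 7.79% and 5.95% of all, and in quadriceps 7 days after EEV4-PMO against PBS 30 were higher and 15 lower, against 6.19% and 7.74% of all. With only the compared groups in the fit, 22 hosts were called for the genotype and 26 at 7 days in quadriceps. Clcn1 averaged 162.8 TPM with EEV4-PMO 30 and 103.4 TPM with PMO 30 (log2 difference 0.65, adjusted p = 6.8e-06 by limma), and Phka1 averaged 424.9 and 284.1 TPM (0.58, adjusted p = 2.7e-05). The imprinted noncoding gene Meg3 averaged 40.57 TPM with EEV4-PMO 30 and 157.3 TPM with PMO 30, a log2 difference of -1.93 (adjusted p = 4.1e-08). In HSALR quadriceps PBS Tnnt3 averaged 15130 TPM, against 25050 TPM in FVB/NJ, a log2 difference of -0.72. PSI is a share of a gene's own transcripts, so these levels and the inclusion values above are different quantities.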

How the data were processed

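RNA was sequenced from HSALR and FVB/NJ gastrocnemius and quadriceps in 98 libraries, in 24 groups and 5 cohorts. Per the labels' protocols, RNA was depleted of ribosomal RNA and made into directional libraries, and the EU cohort was extracted with another kit and proteinase K. Per the submitters' processing notes, cutadapt, STAR and kallisto were used with GRCm38 and mm10, with no roles or versions stated. The deposited PSI values are fractions from 0 to 1, which the labels name as rMATS output. The deposited gene levels are TPM per library, as the labels name them. The authors' table of 36 exons shares coordinates with 29 events of the whole table, 14 of them members, whose PSI differed by a median of 0.006 and by 0.5 at most.

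PSI was fitted on its linear scale with limma 3.58.1 in R 4.3.3, cohort by cohort, with 1 coefficient per group, a variance trend and Benjamini-Hochberg adjustment over all of the cohort's events that no library lacked. Muscles were compared in 1 fit of both time courses. Events with the same value in every library were left out of the fit, a choice made after seeing the data. A call needs an adjusted p under 0.05 and a difference of at least 0.1. TPM were tested as log2(TPM + 1) over genes with a mean of at least 1. There were 22 comparisons of events and 3 of genes, and the fits were tested on simulated data.

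The events, the role lists (139 genes) and the marker lists were chosen with earlier results of these data known. Events named in the text are, for the 12 genes with the widest selection difference, the widest event, each role-list gene's widest event, up to 3 of the widest calls per comparison and the events next to the threshold; the other events named (Ccz1, Arid5a and an Epb41 exon among them) were chosen after their values were seen. A gene that the rule names is not reported here.

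Whether replicate numbers pair libraries was checked by correlating their deviations from group means. For nascent and total RNA the labels' protocol speaks of EU-containing RNA and its corresponding total RNA, and TPM deviations correlated at 0.099 to 0.293 over 10 pairs, 9 of them over 0.1, while their PSI deviations reached 0.051 at most. These libraries were taken as paired. The TPM check was added after blocked counts had been seen. Depth per event is unknown, so no interval is given for a single PSI.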

Additional observations from a re-analysis of the deposited data

Results flagged for a closer look

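In 246 sets of values from groups of 4, 6 or 8 libraries, the highest or lowest library was compared with the rest of its group, and 18 stood apart by Dixon's criterion, where chance gives about 1 in 20. On the return scale these were the highest FVB/NJ gastrocnemius library at 7 days, at 102.3%, and the lowest gastrocnemius library 2 days after EEV4-PMO, at 1.5%. In Atp2a1 the highest HSALR gastrocnemius PBS library at 7 days had a PSI of 0.356, and the highest FVB/NJ gastrocnemius library at 4 days had 0.998. The Neb 93-nt exon had its highest HSALR PBS value at 7 days, 0.395, in the same library (replicate 6). In Phka1 the lowest quadriceps library 2 days after EEV4-PMO had 0.179 and the highest quadriceps PBS library at 4 days had 0.142. In the first Tnnt3 15-nt exon, scored against the second, the highest treated library at 3 months had 0.818 and the highest PBS library at 3 months had 0.031.

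Of the other libraries that stood apart, 4 were in 1 event. Mical3, which encodes an actin-oxidising monooxygenase, had a highest value of 0.701 after PBS in total RNA of the EU cohort and 0.71 after PBS at 3 months, and lowest values of 0.987 in FVB/NJ gastrocnemius and 0.841 in FVB/NJ quadriceps at 4 days. Lowest values stood apart for Lrrfip2 at 7 days in treated quadriceps, 0.462, for Ppp3cc, a calcineurin subunit gene, at 2 days in treated quadriceps, 0.317, for Slc8a3 in FVB/NJ gastrocnemius at 4 days, 0.871, and for the Arfip1 75-nt exon in FVB/NJ gastrocnemius at 7 days, 0.764. Ogdh, which encodes a subunit of 2-oxoglutarate dehydrogenase, had a highest value of 0.341 after PBS in total RNA of the EU cohort.

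A difference between muscles was found by the test of the difference itself for the Tnnt3 12-nt exon, whose rise at 4 days was 0.297 wider in quadriceps than in gastrocnemius (adjusted p = 5e-05 by limma). On the logit scale the adjusted p was 0.39, and with only the compared groups in the fit it was 0.073.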

How the results depend on the processing

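No value of a named event reversed under the alternatives run: 1857 held their side of the threshold and 458 lost their call. Holding only the compared groups in the fit moved the most counts: EEV4-PMO 30 against PMO 30 had 75, against 15 mg/kg 0, HSALR against FVB/NJ 30 in gastrocnemius and 26 in quadriceps, gastrocnemius at 4 days 0, quadriceps at 2, 4 and 7 days 0, 10 and 16, quadriceps at 7 days against FVB/NJ 0, total RNA at 2 days 0, nascent RNA at 1 and 2 days 0 and 0, and host genes 22 (genotype, quadriceps) and 26 (7 days, quadriceps). These fits have fewer libraries. On the logit scale nascent RNA had 4 and 7, nascent against total RNA 12, gastrocnemius at 4 days 2 and the muscle difference at 4 days 0. With a minimum difference of 0.2, nascent against total had 9, gastrocnemius at 4 days 0 and quadriceps at 7 days against FVB/NJ 3; with a selection difference of at least 0.2, nascent against total had 12. With events of no variation kept, an alternative chosen after seeing the data, gastrocnemius at 4 days had 2 and quadriceps at 2 days 3.

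With the replicate block, nascent against total RNA had 10, nascent RNA at 2 days 9, total RNA at 1 and 2 days 1 and 7, and quadriceps at 2 days 0; no other count moved by over 1.5 times. Outside nascent and total RNA, the labels do not say that same-numbered libraries belong together, and the numbers were not taken to pair them. For treated libraries of the 2 muscles, same-numbered TPM deviations correlated at 0.056 to 0.234 at 2 days and 0.076 to 0.166 at 4 days. Whether these libraries are paired is thus not settled. The causes of these changes were not tested.

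Leaving out 1 library at a time gave 120 to 128 for EEV4-PMO 30 against PMO 30, 5 to 10 against 15 mg/kg, 50 to 69 and 53 to 81 for the genotypes in gastrocnemius and quadriceps, 0 to 4 for gastrocnemius at 4 days, 0 to 13, 12 to 39 and 31 to 58 for quadriceps at 2, 4 and 7 days, 7 to 8 for 7 days against FVB/NJ, 0 to 1 and 1 to 3 for the muscle difference at 2 and 4 days, 0 to 4 and 3 to 7 for total RNA and 4 to 9 and 9 to 32 for nascent RNA at 1 and 2 days, 11 to 20 for nascent against total, and 0 to 0 and 0 to 1 for the difference of their changes at 1 and 2 days. It gave 0 to 0 at 1 day in both muscles, at 2 days in gastrocnemius and at 3 months. Host gene counts were 33 to 43, 32 to 41 and 30 to 41. Depth per event is unknown, the replicates are few, and overlapping events of Neb, Ttn and Tnnt3 weigh on every count.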
